A study of Mus musculus with 28 samples.

Results

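The 10 Wnt ligand genes described here are Wnt3, Wnt4, Wnt5a, Wnt6, Wnt7a, Wnt7b, Wnt10a, Wnt10b, Wnt11 and Wnt16. They were chosen by gene symbol as ligands of the hair follicle, from 19 Wnt ligand genes and from 56691 genes listed in the bulge table, and all 10 are listed in each of the 3 tables used. The cells were sorted by flow cytometry from the skin of mice at postnatal day 69. Wild-type (WT) mice were compared with mice carrying a conditional knockout (cKO) of Alkbh5, the enzyme that removes the m6A mark from RNA. There were 12 RNA-seq libraries, with 2 WT and 2 cKO mice in each of 3 datasets: bulge stem cells prepared by SHERRY2, hair germ stem cells prepared by SHERRY2, and hair germ stem cells prepared by SMART-seq. In SHERRY2 a transposase cuts and tags hybrids of RNA and cDNA, whereas SMART-seq amplifies full-length cDNA. The sources used here do not give the sort markers, the Cre driver, the deleted exon or the strain. Nothing in them ties a mouse of 1 dataset to a mouse of another. Each p-value sets a difference against the spread between these libraries, which the tests estimate with help from the other genes.

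Wnt proteins are secreted, lipid-modified ligands that act over short distances by binding Frizzled receptors together with co-receptors. Binding with Lrp5 or Lrp6 stabilises beta-catenin and lets Tcf/Lef factors activate target genes (the canonical branch). Binding with co-receptors such as Ror1 or Ror2 acts on cell shape and polarity (the noncanonical branch). In the follicle, Wnt signalling in the hair germ and bulge starts the growth phase, anagen, and several ligands are made by the follicle epithelium itself.

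Alkbh5 was lower in the bulge cKO libraries, at 4.45 and 2.52 CPM (the read count scaled to the total of its library) against 98.9 and 92.0 in WT. In hair germ SHERRY2 it stood at 17.7 and 6.90 against 62.8 and 61.4 CPM. In hair germ SMART-seq the libraries labelled cKO had 84.8 and 105 CPM, which overlaps the WT values of 132 and 95.3, so the genotype there rests on the labels alone. Bulge libraries held 14676168 to 21187283 reads in genes, SMART-seq libraries 9001396 to 14416601, and hair germ SHERRY2 libraries 488648 to 2317407. The 6 hair germ markers (Cdh3, Lgr5, Gli1, Runx1, Lef1, Cxcl14) summed to 908 and 768 CPM in WT bulge. They summed to 458 and 608 in WT hair germ SHERRY2, which is not higher, and to 1285 and 1328 in WT SMART-seq. The 8 bulge stem cell markers summed to 13319 and 13112 CPM in WT bulge, 8519 and 6778 in WT hair germ SHERRY2, and 11240 and 6121 in WT SMART-seq. These sums were not tested between datasets. All 8 bulge stem cell markers and all 6 hair germ markers had reads in every library of every dataset. In hair germ SHERRY2, olfactory and vomeronasal receptor genes, taken here as a measure of background reads, also had reads in 415 to 472 of 539 genes. The bulge had 44 to 54 such genes of 2002, and SMART-seq 8 to 24 of 631. Levels of low genes in hair germ SHERRY2 are therefore given beside the 95th percentile of those receptor genes.

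Levels of different ligands were compared per length, as CPM per kilobase of exon. In WT bulge cells the highest ligand was Wnt10a, a canonical ligand of skin appendages, at 52.6 ± 7.06 CPM per kb (SD, n = 2). Wnt4 (37.4 ± 1.70) and Wnt3 (34.99 ± 2.83) followed, and the libraries of these neighbours overlapped. Wnt7b came next at 19.4 ± 5.04. These 4 ligands made up 84.4% and 84.6% of the summed ligand level in the WT mice, and 84.0% and 83.8% in the cKO mice. Wnt10b (7.82 ± 0.741), Wnt16 (7.17 ± 1.76) and Wnt6 (6.88 ± 0.806) formed a middle group in which each overlapped its neighbour in the order. Wnt5a, a mainly noncanonical ligand, stood at 2.92 ± 0.459, Wnt11, another noncanonical ligand, at 1.42 ± 0.527, and Wnt7a was lowest at 0.318 ± 0.0551 CPM per kb.

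**Figure D1:**
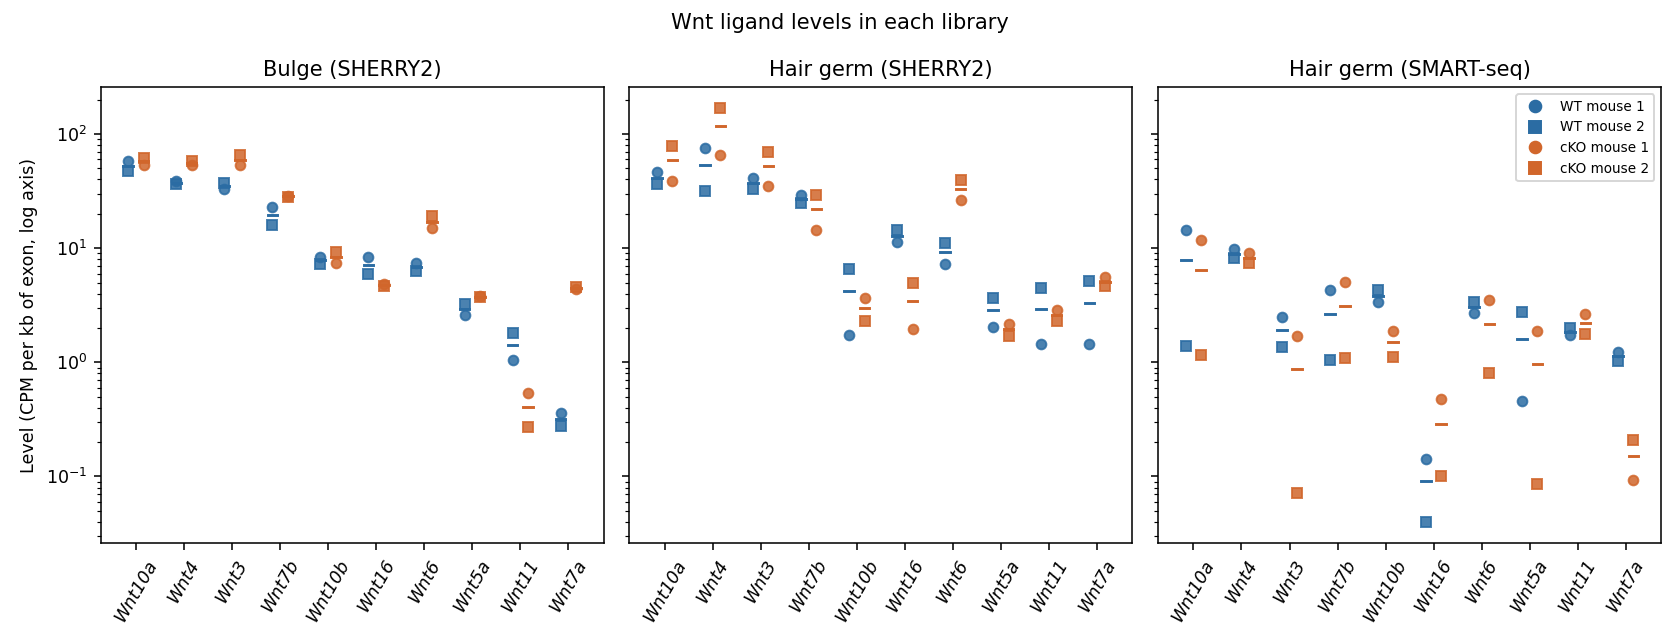
Level of each Wnt ligand in each of the 12 libraries, in CPM per kilobase of exon on a log axis; points are mice and short lines are group means. Wnt7a is the lowest ligand in the WT bulge (0.318 CPM per kb) and stands at 4.36 and 4.55 in the cKO bulge libraries.

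The same 4 ligands led in WT hair germ SHERRY2, with Wnt4 at 53.4 ± 30.6, Wnt10a at 41.3 ± 6.77, Wnt3 at 37.4 ± 5.80 and Wnt7b at 27.2 ± 2.98 CPM per kb (SD, n = 2). The first 3 overlapped their neighbours in the order. Wnt3, Wnt4, Wnt6, Wnt7b and Wnt10a lay above the 95th percentile of the receptor genes in 4 of 4 libraries there, and Wnt16 in 3. Wnt7a did so in 2, Wnt10b and Wnt11 in 1 each, and Wnt5a in 0, so in the remaining libraries the levels of these last 4 were within the range of the receptor genes. In WT hair germ SMART-seq, Wnt4 (8.98 ± 1.12 CPM per kb) was the ligand with the highest mean, and Wnt16 was lowest at 0.143 and 0.0397. Wnt16 reads numbered 9 and 2 in the WT libraries and 28 and 4 in those labelled cKO. The 2 hair germ datasets differ in preparation and in mice, and their levels were not tested against each other.

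In the bulge, 2 of the 10 ligands changed with genotype, and both rose: Wnt7a and Wnt6. Across all 15672 genes tested with edgeR's quasi-likelihood test, 476 passed an adjusted p of 0.05 (Benjamini-Hochberg), which is 3.04%. Of all genes tested, 1.44% rose and 1.6% fell. The median log2 fold change of the 10 ligands was 0.28, against -0.01 for all genes tested, and 6 of the 10 had a positive estimate.

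Wnt7a is a ligand first known from limb patterning and from epithelia. Its reads numbered 24 and 13 in the WT libraries and 211 and 286 in the cKO libraries. This was 1.13 and 0.886 CPM in WT and 13.8 and 14.4 CPM in cKO. Both cKO mice lay far above both WT mice, and the 2 mice of each genotype were close together. The log2 fold change was 3.61 (SE 0.35, adjusted p = 0.00383 with edgeR). The mean CPM was 14.0-fold higher in cKO, or 12.4-fold on library sizes adjusted by TMM, the scaling of the test. Wnt7a passed the threshold in every alternative fit and with each library left out in turn. In order of level it went from the 10th to the 8th of the 10 ligands, above Wnt5a and Wnt11.

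Wnt6, an epithelial ligand, had 16.3 and 13.8 CPM in the WT bulge and 32.9 and 41.8 in cKO. The genotypes did not overlap, and the lowest cKO library was above the highest WT library. The log2 fold change was 1.13 (SE 0.21, adjusted p = 0.0345 with edgeR), a 2.48-fold higher mean CPM, or 2.19-fold on TMM-adjusted sizes. The call rested on both WT mice: without WT mouse 1 the log2 fold change was 1.28 (adjusted p = 0.0516 with edgeR), and without WT mouse 2 it was 0.98 (adjusted p = 0.148). A gene on the opposite strand, Gm29539, overlaps Wnt6 by 2463 bases. It had 6 reads in each WT library and 17 and 13 in the cKO libraries, against 203 to 827 for Wnt6 itself. The sources used here do not say whether counting used strand.

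**Figure D2:**
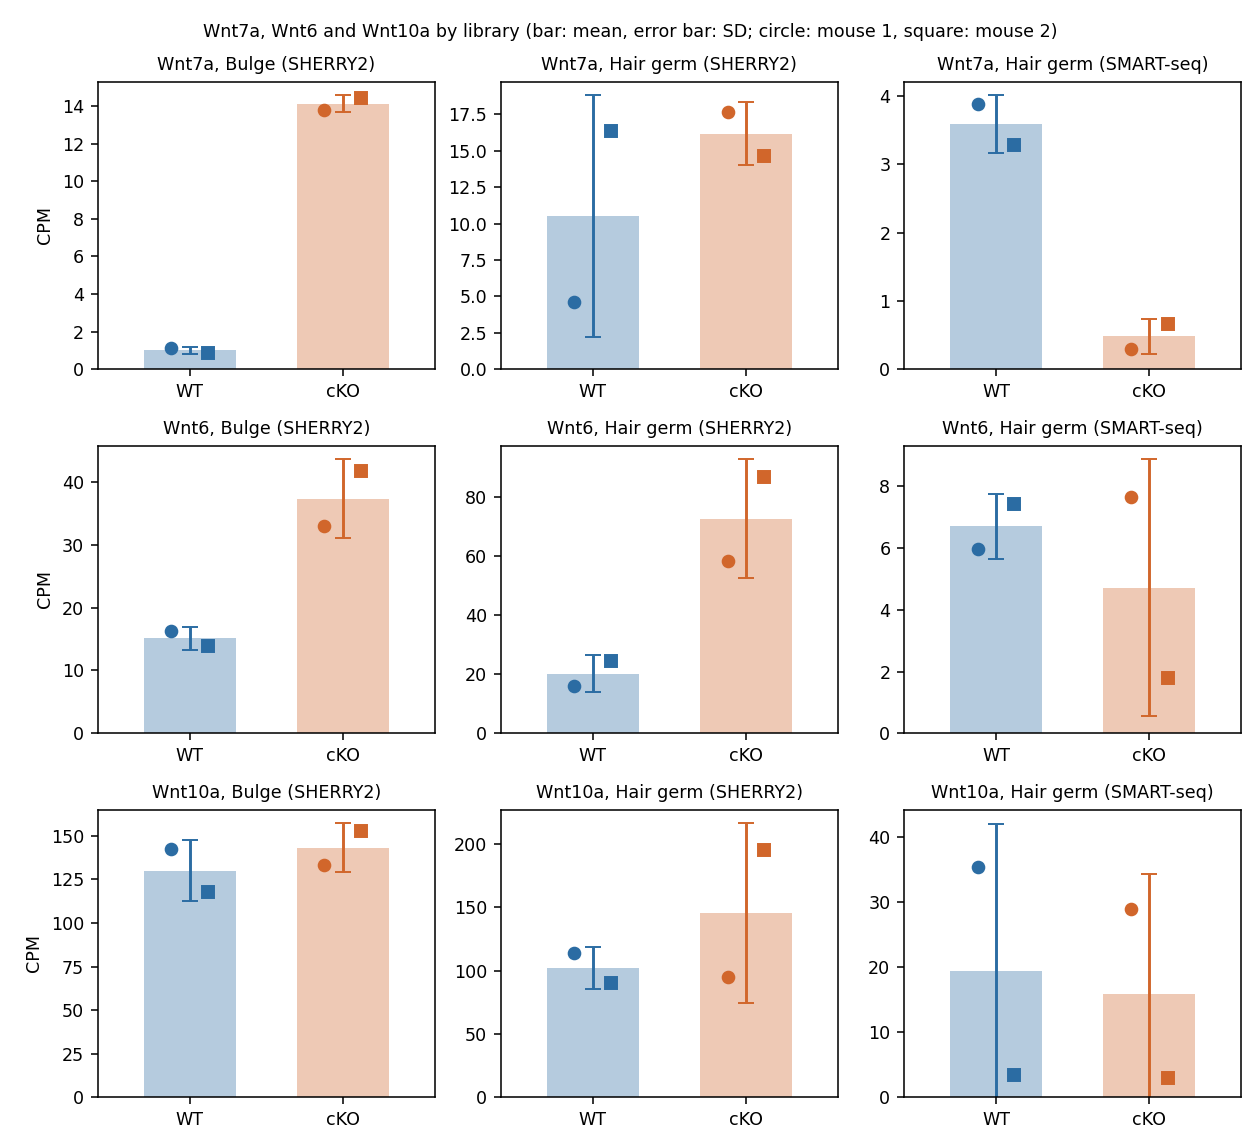
CPM of Wnt7a, Wnt6 and Wnt10a in each library, with bars for group means and error bars for SD (n = 2); each panel has its own vertical axis from 0. Wnt7a is higher in cKO in the bulge and lower in the SMART-seq libraries labelled cKO, while in SMART-seq Wnt10a separates mouse 1 from mouse 2 of each genotype.

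The sequences before the annotated starts of Wnt7a and Wnt6 are shown because these were the ligands that changed in the bulge, and that of Wnt16 because its values were lower in cKO in both SHERRY2 datasets. Each line gives the 250 bases before the start, 5′ to 3′ on the strand of the gene, from RefSeq on GRCm38.p6. Capitals mark matches to a GC box, searched as GGGCGG on both strands, including matches that overlap each other.
Wnt7a: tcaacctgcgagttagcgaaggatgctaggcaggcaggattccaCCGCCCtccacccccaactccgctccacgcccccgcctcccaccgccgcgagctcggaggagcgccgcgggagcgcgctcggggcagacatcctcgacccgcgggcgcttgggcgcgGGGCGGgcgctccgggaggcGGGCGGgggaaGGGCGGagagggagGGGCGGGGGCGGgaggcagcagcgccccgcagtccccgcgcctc
Wnt6: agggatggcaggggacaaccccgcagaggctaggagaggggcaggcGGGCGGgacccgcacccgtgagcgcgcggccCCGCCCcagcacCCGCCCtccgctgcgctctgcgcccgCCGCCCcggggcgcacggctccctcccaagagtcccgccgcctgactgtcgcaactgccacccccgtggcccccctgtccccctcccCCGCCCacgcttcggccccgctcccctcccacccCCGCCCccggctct
Wnt16: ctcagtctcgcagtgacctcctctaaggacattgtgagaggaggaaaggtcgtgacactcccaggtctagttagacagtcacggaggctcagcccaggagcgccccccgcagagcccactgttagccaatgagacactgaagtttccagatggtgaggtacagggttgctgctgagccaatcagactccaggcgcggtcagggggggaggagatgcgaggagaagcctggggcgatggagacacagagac
The windows lie at chr6:91411354-91411603 on the minus strand for Wnt7a, at chr1:74771642-74771891 on the plus strand for Wnt6, and at chr6:22287977-22288226 on the plus strand for Wnt16. The Wnt7a window held 6 GC boxes and 34 CpG, the Wnt6 window 6 GC boxes and 28 CpG, and the Wnt16 window 0 GC boxes and 9 CpG. A GC box occurred in 32.7% of 32851 promoter windows of that length, and the median window held 6 CpG. The Tcf/Lef motif CTTTGA, present in 13.8% of all windows, and the AP-1 motif TGANTCA, present in 6.75%, were searched the same way and had 0 matches in these 3 windows. Of the 10 ligands, 7 had a window in the RefSeq table. Of these, Wnt3, Wnt4 and Wnt10b, which did not pass the test, held 2, 8 and 0 GC boxes. Wnt11, which had the lowest bulge estimate and did not pass the main test, had more than a single window. That at chr7:98834862-98835111 held 4 GC boxes, 37 CpG and 1 match to the Tcf/Lef motif. That at chr7:98838595-98838844 held 0 GC boxes, 16 CpG and 0 Tcf/Lef matches. Whether these counts go with the genotype differences was not tested.

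The most abundant ligands had smaller estimates. Wnt3, a canonical ligand, had 101 and 114 CPM in the WT bulge and 164 and 203 in cKO (log2 fold change 0.60, SE 0.16, adjusted p = 0.101 with edgeR). Wnt4 had 162 and 152 against 225 and 242 (0.40, SE 0.15, adjusted p = 0.199). Neither passed, although the genotypes did not overlap for either. Wnt10a had 142 and 118 CPM in WT and 133 and 153 in cKO, with overlapping genotypes (-0.04, SE 0.17, adjusted p = 0.937 with edgeR). Wnt7b had 113 and 77.8 against 139.9 and 139 CPM (0.37, SE 0.20, adjusted p = 0.385). Wnt10b, a ligand tied to the onset of anagen, had 28.4 and 24.8 against 25.4 and 31.4 CPM (-0.08, SE 0.19, adjusted p = 0.870). Wnt5a had 20.3 and 25.4 against 29.7 and 29.1 CPM (0.20, SE 0.18, adjusted p = 0.629).

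The lowest estimates in the bulge belonged to Wnt11 and Wnt16. Wnt11 reads numbered 92 and 109 in the WT mice and 34 and 22 in the cKO mice, or 4.34 and 7.43 against 2.23 and 1.11 CPM. The genotypes did not overlap, and the mean CPM was 3.53-fold lower in cKO (log2 fold change -1.99, SE 0.51, adjusted p = 0.0861 with edgeR). Wnt16 had 36.7 and 25.8 CPM in WT and 21.3 and 20.4 in cKO (-0.76, SE 0.22, adjusted p = 0.119). Neither passed the main test. With DESeq2, Wnt3 (adjusted p = 0.0234) and Wnt11 (adjusted p = 0.0127) passed as well, and without a filter on low counts Wnt3, Wnt11 and Wnt16 did. Leaving out cKO mouse 1 also brought Wnt3 (adjusted p = 0.0194 with edgeR) and Wnt11 (adjusted p = 0.000422) past it.

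In 8 of the 10 ligands the bulge genotypes did not overlap in CPM, with 6 higher and 2 lower in cKO, and the same 8 did not overlap on TMM-adjusted sizes. Over all genes tested, the genotypes did not overlap for 54.4%, with 38.9% higher and 15.5% lower in cKO. On TMM-adjusted sizes it was 50.9%, with 24.7% higher and 26.2% lower. Scaling by library totals instead of TMM raised the median log2 fold change of all genes from -0.01 to 0.16. It gave 809 calls, 590 of them higher in cKO, against 225 of 476 in the main fit. On library totals Wnt3 also passed (log2 fold change 0.77, adjusted p = 0.0381 with edgeR), and the estimates of Wnt10a and Wnt10b turned positive, at 0.139 and 0.0945.

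**Figure D3:**
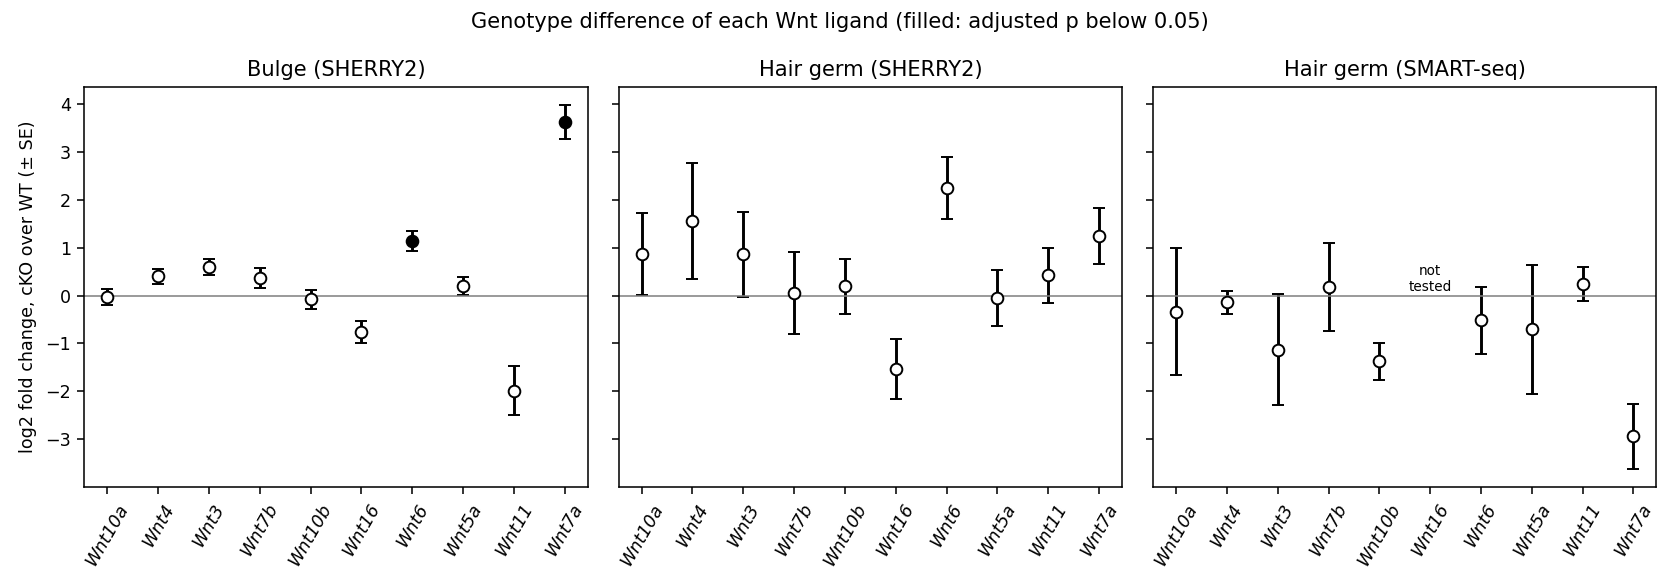
Log2 fold change of each Wnt ligand, cKO over WT, with its SE, in the 3 datasets; filled points passed an adjusted p of 0.05 in that dataset's main test. Wnt7a and Wnt6 are filled in the bulge, and none is filled in either hair germ dataset.

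Summed markers of some other cell types differed between the genotypes in the bulge. The summed CPM of 5 immune markers (Ptprc, Cd74, H2-Aa, Cd207, Cd3e) was 185 and 146 in WT and 70.8 and 41.5 in cKO, with 2 of the 5 lower by the test. That of 4 sebaceous gland markers (Scd1, Pparg, Mgst1, Awat2) was 226 and 242 in WT and 450.4 and 654 in cKO, with 1 of the 4 higher. Fibroblast and dermal papilla markers, 8 genes, summed to 38.9 and 31.4 against 37.9 and 26.6 CPM. The 6 hair germ markers summed to 908 and 768 CPM in WT and 691 and 459 in cKO, and the 8 bulge stem cell markers to 13319 and 13112 against 11933 and 11478, with 0 of either list called. Of 5 interfollicular epidermis markers 1, Krtdap, was lower in cKO, while their sum overlapped between genotypes, at 4608 and 5185 against 5094 and 4874 CPM. WT mouse 2 was male by its Y-linked genes, and the other 3 bulge mice were female by Xist. The part of these differences in the ligand values was not tested. In bulk RNA, a change in the share of cells that make a ligand cannot be told apart from a change in RNA per cell.

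In hair germ SHERRY2, 0 of the 10 ligands passed the main test, limma on log2(normalized count + 1), which called 3 of 38953 genes (0.0077%). The unadjusted p was below 0.05 for 1801 of those genes (4.62%). Wnt6 had 23.5 and 19.0 normalized counts in WT and 65.3 and 164 in cKO, from 24, 12, 89 and 201 reads. Both cKO mice lay above both WT mice, as in the bulge. Its log2 fold change was 2.24 (SE 0.64, adjusted p = 0.570 with limma). With edgeR on whole reads recovered from the same table it was 2.10 (adjusted p = 0.0462), past the threshold, as were 0.377% of the 16707 genes of that test, with 0.102% higher in cKO. The authors' deposited table gives Wnt6 a log2 fold change of 2.43 with an adjusted p of 1.00.

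Wnt7a had 6.85 and 12.6 normalized counts in WT and 19.8 and 27.8 in cKO (log2 fold change 1.24, SE 0.58, adjusted p = 0.970 with limma). The genotypes did not overlap in normalized counts but did in CPM, at 4.63 and 16.4 against 17.7 and 14.7. Per length, both WT libraries lay within the receptor-gene range, at 1.46 and 5.16 CPM per kb where the 95th percentiles were 3.00 and 6.67. The 2 libraries above their percentile were the cKO ones, at 5.58 and 4.63 where it was 4.11 and 1.87, so the fold change is taken over a background level. Wnt16 had 72.4 and 49.0 against 9.53 and 40.8 normalized counts (-1.53, SE 0.63, adjusted p = 0.970), with both cKO mice lower, and the lowest library, cKO mouse 1, was within the receptor-gene range at 1.95 CPM per kb. These were the 3 ligands of the 10 whose genotypes did not overlap in normalized counts, against 32.8% of all genes tested. Wnt4 ranged most widely, at 466 and 103 in WT and 309 and 1343 in cKO. As ratios, mice of the same genotype differed by more than the genotype means did (log2 fold change 1.55, SE 1.21). Wnt10a, Wnt3 and Wnt7b were highest in cKO mouse 2, with 369.9, 407 and 274 normalized counts.

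The remaining ligands of hair germ SHERRY2 had estimates between -0.05 (Wnt5a) and 0.87 (Wnt10a). Scaling by library totals lowered the median of all genes from 0.06 to -0.33 and turned Wnt7b, Wnt10b and Wnt11 negative, so no direction is given for them. The WT library with 488648 reads was the shallowest of the 12. By its Y-linked genes cKO mouse 1 was male, and the other 3 mice were female. In that male library the inhibitor Wif1 stood at 188 CPM, against 5.29 and 22.5 in WT and 3.45 in cKO mouse 2, and the target genes Lef1 (71.4 against 6.90 to 24.6) and Lgr5 (89.1 against 10.8 to 24.6) were also highest there. These genes were picked, after their values were seen, from 14 inhibitors and 13 target genes. Lef1 and Lgr5 are also hair germ markers, whose sum there was 706 CPM against 458 to 608. That library was also highest in summed hair matrix and shaft markers (171 CPM against 15.2 to 45.0) and melanocyte markers (134 against 30.2 to 67.5). WT mouse 1 stood apart in interfollicular epidermis markers, which summed to 11377 CPM against 2179 in WT mouse 2 and 2265 and 3667 in cKO. The part of these differences in the ligand values was not tested.

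In hair germ SMART-seq, 9 ligands had enough reads for the test and 0 passed, as did 0% of all 17547 genes tested with edgeR. At an unadjusted p below 0.05, 179 genes (1.02%) remained, and DESeq2 also called 0 genes. Wnt7a reads numbered 56 and 38 in the WT libraries and 4 and 6 in the libraries labelled cKO, or 3.88 and 3.29 against 0.297 and 0.667 CPM. The groups did not overlap, and the libraries labelled cKO were lower (log2 fold change -2.94, SE 0.68, unadjusted p = 0.00658 with edgeR, adjusted p = 1.00). Wnt10b had 11.4 and 14.7 CPM against 6.39 and 3.78, also without overlap (-1.37, SE 0.39, adjusted p = 1.00). Groups that do not overlap were found for these 2 of the 9 tested ligands and for 23.9% of all genes tested. Wnt4 was steady, at 41.0 and 34.3 against 38.0 and 31.3 CPM.

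Several ligands in SMART-seq differed more between mice than between groups. Wnt10a had 35.3 CPM in WT mouse 1 and 28.9 in mouse 1 labelled cKO, but 3.46 and 2.89 in the mice numbered 2. Wnt7b had 20.9 and 24.9 CPM in the mice numbered 1 and 5.10 and 5.33 in those numbered 2. In both genes the mice numbered 1 were high and those numbered 2 were low, whatever the label. The mice numbered 1 were female by Xist and those numbered 2 male by Y-linked genes. The summed CPM of 5 interfollicular epidermis markers (Krt1, Krt10, Ivl, Lor, Krtdap) was 499 and 541 in the mice numbered 1 and 76.0 and 152 in those numbered 2. That of the fibroblast markers was 90.9 and 53.1 against 22.6 and 19.1. The part of these values in the ligand levels was not tested.

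Wnt5a and Wnt3 were also uneven in SMART-seq. Wnt5a had 3.61 and 21.5 CPM in WT and 14.6 and 0.667 in the libraries labelled cKO. Wnt3 had 7.63 and 4.15 against 5.20 and 0.222 CPM, and Wnt6 had 5.97 and 7.44 against 7.66 and 1.78. Mouse 2 labelled cKO was lowest for all 3. Wnt11 had 7.14 and 8.22 against 11.0 and 7.33 CPM, with overlapping groups.

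**Figure D4:**
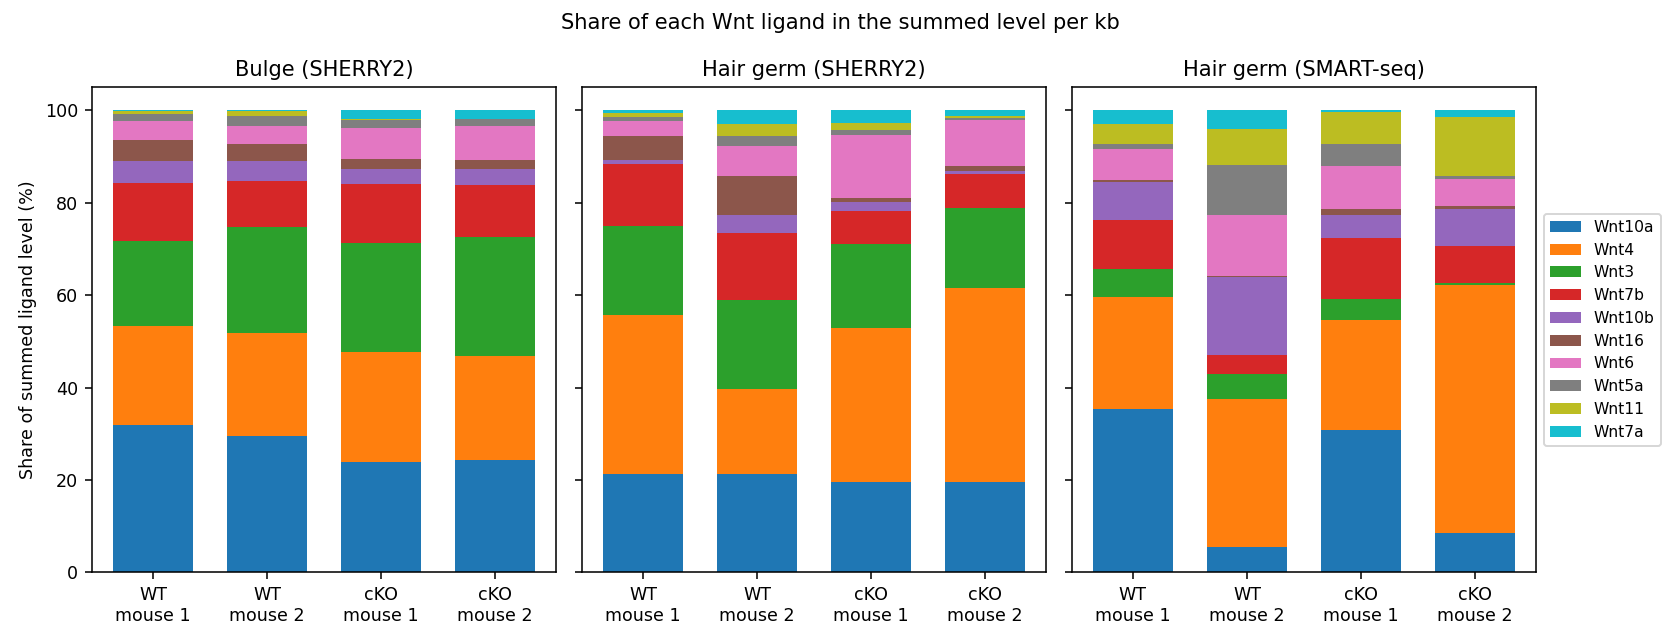
Share of each ligand in the summed level per kilobase of the 10 ligands, in percent, for each library. Wnt10a, Wnt4, Wnt3 and Wnt7b fill 83.8% to 84.6% of each bulge library, while in SMART-seq the share of Wnt10a is large in the mice numbered 1 and small in those numbered 2.

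The genotype effect on Wnt7a differed between the bulge and hair germ SMART-seq. In a joint edgeR fit of both datasets with an interaction term, the log2 fold change of Wnt7a was lower by -6.58 in hair germ SMART-seq than in the bulge (SE 0.71, adjusted p = 0.0419). It was the only 1 of the 10 ligands past the threshold, against 0.0413% of 19371 genes. The estimate stayed between -7.22 and -6.05 when each of the 8 libraries was left out in turn. The call held in 1 of those 8 fits, without hair germ WT mouse 2, and the adjusted p reached 0.380 in the others. Tissue, preparation and mice all differ between these datasets, and the Alkbh5 levels of the SMART-seq libraries overlap between the labels, so what the difference belongs to cannot be told apart. Against hair germ SHERRY2, on recovered reads, 0 of the 10 ligands passed, against 0.119% of 26139 genes. Wnt7a had the lowest unadjusted p there (-2.70, SE 0.83, adjusted p = 0.357 with edgeR), and passed without the hair germ WT library numbered 1 (-3.42, adjusted p = 0.0265).

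The summed level of the 10 ligands was 180.5 and 162 CPM per kb in the WT bulge and 225 and 255 in cKO. The hair germ SHERRY2 sums were 217 and 172 against 197 and 403, with overlapping genotypes. In SMART-seq it was 40.5 and 25.5 against 38.0 and 13.9. The sum was higher in both cKO mice than in both WT mice only in the bulge, among these 3 datasets. These sums use library totals, on which 38.9% of all tested bulge genes were higher in cKO without overlap and 15.5% lower. Library totals moved the median log2 fold change of all bulge genes from -0.01 to 0.16. In hair germ SHERRY2 they moved it the other way, from 0.06 to -0.33. The sums were not taken on TMM-adjusted sizes, and the difference between datasets was not tested.

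Ligand genes lie in pairs at several places. By the positions of the bulge table, which names no genome build, Wnt6 (chromosome 1, 74811051 to 74824481) and Wnt10a (74830675 to 74843338) lie 6193 bases apart on the same strand. Their bulge values differed: Wnt6 rose 2.48-fold in mean CPM, or 2.19-fold on TMM-adjusted sizes, and passed the test. The cKO mean of Wnt10a was 1.10-fold that of WT in CPM and 0.975-fold on TMM-adjusted sizes (log2 fold change -0.04), and it did not pass. Wnt10b lies 11706 bases from Wnt1, and Wnt3 24328 bases from Wnt9b, each on opposite strands. Wnt1 had 0, 0, 0 and 0.0505 CPM and Wnt9b at most 0.656 CPM in the bulge, so these partners of expressed ligands were at or near 0.

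The other lists of the pathway in the bulge are read against the 3.04% of all tested genes that passed. Of the 9 other Wnt ligands 5 were tested and 0 passed. Among them Wnt3a had 40.4 and 43.6 CPM in WT and 65.9 and 73.3 in cKO (log2 fold change 0.56, adjusted p = 0.104 with edgeR). Of 10 genes of Wnt secretion and lipid handling, 1 fell: Tmed5, a cargo receptor of the early secretory pathway, at 98.0 and 99.6 against 62.1 and 68.2 CPM (-0.77, SE 0.14, adjusted p = 0.0361). Porcn, which adds the lipid, and Wls, which carries Wnt proteins to the surface, did not pass, with log2 fold changes of 0.37 and 0.21. Of 18 receptors and co-receptors 0 passed, the nearest being Ror1, a receptor for Wnt5a, at 12.1 and 9.95 against 26.2 and 21.7 CPM (0.94, SE 0.23, adjusted p = 0.0753).

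Of 6 tested secreted inhibitors 1 fell, Sostdc1, which binds both Wnt co-receptors and BMP ligands. It had 234 and 254 CPM in the WT bulge and 154 and 129 in cKO (log2 fold change -0.96, SE 0.16, adjusted p = 0.0255 with edgeR). Of 15 tested planar polarity and noncanonical genes 1 fell, Prickle2, at 117 and 107 against 69.1 and 39.6 CPM (-1.22, SE 0.25, adjusted p = 0.0494). Of 6 tested genes of the R-spondin axis, which amplifies Wnt signals, and of 18 genes of canonical signal transduction, 0 passed. Of 11 tested Wnt target genes, Ccnd1, a cell cycle activator, rose (1.40, adjusted p = 0.0152) and Myc, a growth regulator, fell (-1.39, adjusted p = 0.0323). Axin2, a widely used readout of canonical signalling, had 25.5 and 23.9 against 22.1 and 25.2 CPM per kb, with overlapping genotypes on library totals. Its log2 fold change, on TMM, was -0.24 (SE 0.15, adjusted p = 0.464 with edgeR). In hair germ SHERRY2 and SMART-seq, 0 genes of any of these lists passed, where 0.0077% and 0% of all genes tested did, so these counts say nothing particular about the lists.

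Genes with a profile close to that of Wnt6 and Wnt7a were sought by the mean absolute difference of log2(CPM + 1), centred within each dataset, over the 12 libraries and 15139 genes. For Wnt6 these were Ass1 (0.196), an enzyme of arginine synthesis, Mcm2 (0.229), a subunit of the replicative helicase, and Cntln (0.254), a centrosomal protein. For Wnt7a they were Ces2e (0.301), a carboxylesterase, Kank3 (0.318) and Col2a1 (0.362), a fibrillar collagen chain. In the bulge Ces2e had 2.12 and 1.36 CPM in WT and 19.2 and 27.3 in cKO, and Col2a1 0.472 and 0.545 against 12.3 and 15.5. Mcm2 had 56.5 and 28.2 against 85.6 and 118 CPM and did not pass (adjusted p = 0.127 with edgeR). In SMART-seq the log2 fold changes of Ces2e and Kank3 were -1.22 and -0.58, against -2.94 for Wnt7a, and Col2a1 was not tested. In hair germ SHERRY2 those of Ces2e, Kank3 and Col2a1 were 1.05, 1.61 and 0.53, against 1.24 for Wnt7a. On the scale of the search, the mean absolute value was 0.698 for Wnt6 itself and 0.960 for Wnt7a. The genes were chosen for this likeness, which is a description of these libraries.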

How the data were processed

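RNA-seq of sorted bulge and hair germ stem cells was analysed in 12 libraries, and the 16 m6A libraries were not analysed here. The deposited bulge table holds read counts and the authors' FPKM per gene, and the deposited SMART-seq table holds read counts. The deposited hair germ SHERRY2 table holds a normalized signal (reads divided by a size factor) with the authors' log2 fold change, score and p-values. Its columns were assigned to genotypes by name. Score and log2 fold change had opposite signs in all 47243 genes there, and directions follow the values of the libraries. STAR, featureCounts, Trim Galore and DESeq2 are named in the submitters' processing notes, with HISAT2, Subread and fastp added for SMART-seq. For versions, annotation and strand use, nothing is stated in the sources used.

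Counts were tested with edgeR 4.0.16 (quasi-likelihood, TMM, filterByExpr) in R 4.3.3, and SHERRY2 hair germ values with limma 3.58.1 with a trend, as log2(normalized count + 1), where a gene's mean was 1 or more. All tests were two-sided, with Benjamini-Hochberg adjustment over all genes tested and a threshold of 0.05. Fold changes on that log2 scale understate changes of low genes. Whole reads were recovered for 100% of those values within 0.01 reads, with size factors from 0.632 to 1.36. CPM were computed on library totals, and exonic sizes came from the bulge table. For the bulge, CPM per kilobase and the authors' FPKM are nearly the same quantity. TMM-adjusted levels and fits on library totals were added after the split of bulge genes by direction on library totals had been seen. DESeq2 1.42.0 was an alternative. The fits were also run on simulated counts, with the same spread set for all genes and changes planted only in genes with many reads. Those runs do not cover low genes such as Wnt7a in the hair germ, or ligands as uneven between mice as Wnt10a in SMART-seq.

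The ligands and gene lists were chosen with earlier results of these data known. Genes named besides the ligands were Alkbh5, markers, up to 4 genes past the threshold per list by lowest p (where none passed, up to 2 of lowest p), and the 3 genes nearest in profile to each ligand that passed in the bulge. Axin2, Porcn, Wls, Wnt1, Wnt9b and the genes highest in 1 hair germ SHERRY2 library were named after their values were seen.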

Additional observations from a re-analysis of the deposited data

Results flagged for a closer look

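The genotype effect on Wnt7a differed between datasets by a test of the difference itself. The log2 fold change in hair germ SMART-seq minus that in the bulge was -6.58 (SE 0.71, adjusted p = 0.0419 with edgeR). Both bulge cKO libraries were above both WT libraries, and both SMART-seq libraries labelled cKO were below both WT libraries, from 4 and 6 reads against 56 and 38. With each of the 8 libraries left out in turn, the call held only without hair germ WT mouse 2, and the adjusted p with edgeR reached 0.380, with the estimate between -7.22 and -6.05. Alkbh5 in the SMART-seq libraries labelled cKO (84.8 and 105 CPM) overlapped that in WT (132 and 95.3), so the genotype there rests on the labels alone.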

How the results depend on the processing

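Wnt7a kept its bulge call in every alternative run. Wnt6 kept it except without either WT mouse. The count of bulge genes past the threshold was 476, against 1191 with DESeq2, 1549 without a filter on low counts, 809 on library totals (added after seeing the data), and 218 to 1601 with 1 library left out. Without WT mouse 2 it was 218, without cKO mouse 1 1601 and without cKO mouse 2 733. SMART-seq gave 0 genes, and 30 without the filter. Hair germ SHERRY2 gave 3 genes, against 0 with a pseudocount of 0.1, 0 without a filter on the mean, 0 in the authors' deposited table, 63 with edgeR on recovered reads, 16 on CPM scaling (added after seeing the data), and 0 to 105 with 1 library left out. The difference between bulge and SMART-seq gave 8 genes, 513 without the filter and 0 to 18 with 1 library left out. The difference between bulge and hair germ SHERRY2 gave 31, 11 without the filter and 32 to 605 with 1 left out. The WT bulge level of Wnt4 was 37.4 CPM per kb, and 39.8 on TMM-adjusted sizes. The cause of these changes was not tested.

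No number in the labels marks a shared litter, batch or day. Deviations of same-numbered mice correlated at 0.01 in the bulge, -0.17 in hair germ SHERRY2 and 0.23 in SMART-seq. With the replicate block, the bulge had 506 genes and the same 2 ligands (Wnt7a, Wnt6), hair germ SHERRY2 had 5 genes and SMART-seq 0.

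Within each dataset or comparison, estimates that changed sign belonged to ligands without a call in its main test. Wnt6, called in the bulge, was among those that changed sign in SMART-seq. In the bulge, Wnt10a (-0.20 to 0.13) and Wnt10b (-0.25 to 0.0906) did so with 1 library left out, and on library totals they were 0.139 and 0.0945. In SMART-seq this held for Wnt10a (-2.76 to 2.20), Wnt5a (-4.17 to 1.03), Wnt7b (-1.30 to 1.57), Wnt4 (-0.29 to 0.0208), Wnt6 (-1.89 to 0.16) and Wnt11 (-0.0531 to 0.48). In hair germ SHERRY2 it held for Wnt7b (-0.85 to 0.94), Wnt10b (-0.26 to 0.64), Wnt5a (-0.25 to 0.14), Wnt3 (-0.00662 to 1.73) and Wnt10a (-0.0264 to 1.76). There, edgeR on recovered reads gave Wnt7b -0.10 and Wnt10b -0.15, and CPM scaling gave Wnt7b -0.39, Wnt10b -0.24 and Wnt11 -0.00356. For the difference between SMART-seq and bulge the ranges were -1.70 to 1.21 (Wnt7b), -2.76 to 2.25 (Wnt10a) and -4.41 to 0.85 (Wnt5a). For that between hair germ SHERRY2 and bulge they were -0.81 to 0.44 (Wnt3), -0.90 to 0.69 (Wnt10b), -0.28 to 1.77 (Wnt4) and -0.20 to 1.10 (Wnt10a), and without the filter Wnt3 was 0.32 and Wnt10b 0.29. The hair germ SHERRY2 libraries, at 488648 to 2317407 reads, were the shallowest of the 3 datasets.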
